A study of Arabidopsis thaliana with 8 samples.

Results

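The genes described here are 9 loci of karrikin and strigolactone perception and response, out of 27634 rows in the deposited tables. They were taken by locus number: DLK2 (AT3G24420), D14 (AT3G03990), KAI2 (AT4G37470), MAX2 (AT2G42620), KUF1 (AT1G31350), BBX20 (AT4G39070), KUOX1 (AT5G07480), BRC1 (AT3G18550) and HB40 (AT4G36740). All 9 have a row in each library, and 7 had enough counts to be tested. KUOX1 and HB40 did not, and their counts are given as they stand. Leaf RNA was sequenced from rosettes of Arabidopsis thaliana at 24 days of age: 4 libraries came from DLK2-OE1, which overexpresses DLK2, and 4 from the wild type (WT). Both genotypes grew on plates for 11 days and then on soil for 13 days. DLK2-OE1 is a single line, and the labels name no promoter for its transgene. Whether replicates were separate plants is not stated either, so p-values reflect library-to-library spread, part or all of which may be technical.

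Strigolactones and karrikins are sensed by α/β hydrolases. D14 binds strigolactones, and KAI2 is needed for responses to karrikins, which are smoke-derived butenolides, and to an endogenous signal that is not yet identified. Each works with the F-box protein MAX2, which marks repressors of the SMAX1 and SMXL family for degradation. DLK2 is the third member of the hydrolase family, and its transcript is known in seedlings as a MAX2-dependent marker of the response.

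Library totals ranged from 18461205 to 19385026 counts in DLK2-OE1 and from 18097159 to 22139801 in WT. On the first principal component, which held 60.3% of the variance, DLK2-OE1 replicates 1 and 2 stood apart at 61.5 and 87.4, against 11.2 and -8.2 for DLK2-OE1 replicates 3 and 4 and -47.5 to -27.7 for WT. Values without those libraries are given for each tested member and for SMAX1, SMXL5, BRC2 and NCED3. Of leaf mesophyll markers 5 of 5 were abundant, with summed levels of 16845 to 35590 CPM (counts scaled to TMM-normalized library size) in DLK2-OE1 and 27219 to 40826 CPM in WT. The summed level of 4 root markers was at most 0.2 CPM in DLK2-OE1 and 0.059 CPM in WT, with RHD6 and EXPA7 at 0 throughout. In bulk tissue, fewer cells of a type and less RNA per cell cannot be told apart.

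The hydrolase genes are related closely enough that sharing of reads had to be checked. Aligned coding sequences were 57.0% identical between DLK2 and D14, 58.4% between DLK2 and KAI2 and 62.2% between D14 and KAI2. The longest stretch that DLK2 and D14 share without a mismatch is 13 bases, and that of each other pair is 11 bases. These stretches are printed in capitals, pair by pair, with 20 flanking coding bases on each side, 5′ to 3′ on the coding strand, to show how soon the genes diverge on either side. Positions are from RefSeq TAIR10.1: DLK2 chr3:8863432-8863484 (minus strand) and D14 chr3:1034221-1034273 (plus) for DLK2 and D14, DLK2 chr3:8864796-8864846 (minus) and KAI2 chr4:17618294-17618344 (minus) for DLK2 and KAI2, and D14 chr3:1033909-1033959 (plus) and KAI2 chr4:17618198-17618248 (minus) for D14 and KAI2.
DLK2: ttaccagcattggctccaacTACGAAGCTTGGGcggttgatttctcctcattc
D14: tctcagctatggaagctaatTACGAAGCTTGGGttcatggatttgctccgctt
DLK2: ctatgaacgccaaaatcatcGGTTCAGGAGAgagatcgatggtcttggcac
KAI2: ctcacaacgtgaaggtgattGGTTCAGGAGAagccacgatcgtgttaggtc
D14: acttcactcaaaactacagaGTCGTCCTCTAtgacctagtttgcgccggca
KAI2: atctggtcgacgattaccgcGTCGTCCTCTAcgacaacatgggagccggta

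DLK2, the gene named by the label of the line, rose in DLK2-OE1, and MAX2 was the one other gene of the 9 that passed the test. D14 and KAI2, the receptor genes, had lower means in DLK2-OE1 without passing. Neither karrikin-induced gene with enough counts passed, and BRC1, a gene of bud arrest, was high in 3 of 4 DLK2-OE1 libraries. In edgeR's quasi-likelihood test, Benjamini-Hochberg adjusted over 18155 genes, 2 of 7 tested members passed an adjusted p of 0.05, both higher, against 3.69% of all tested genes in either direction, 2.12% higher and 1.58% lower in DLK2-OE1. One of these is the overexpressed gene itself. The median log2 fold change was 0.46 over the 7 members and 0.00 over all tested genes. The 7 include the overexpressed DLK2 (0.92), and their median is the value of MAX2.

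**Figure D1:**
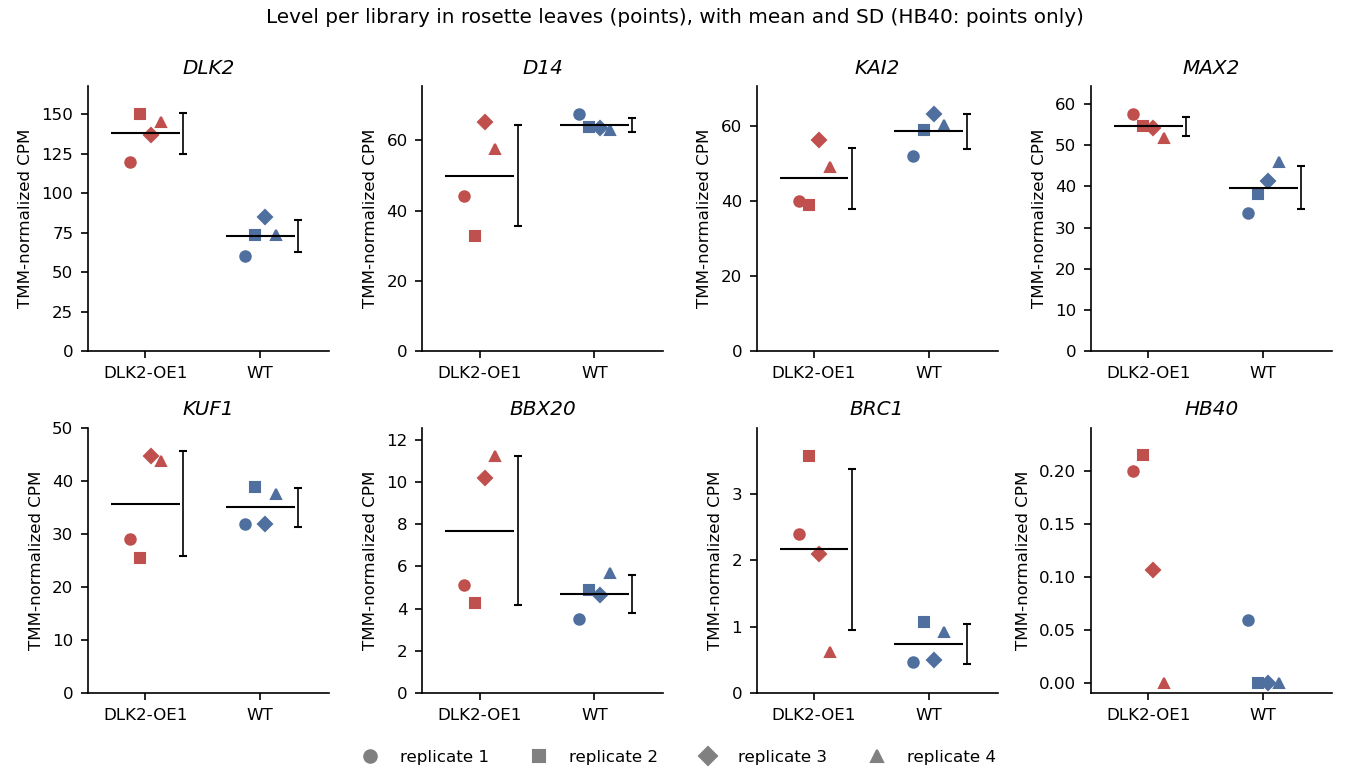
Normalized level (CPM, y axis from 0 except for HB40) of 8 members in each DLK2-OE1 and WT library; the symbol's shape gives the replicate, the line the mean and the bar 1 SD (n = 4). DLK2 and MAX2 separate the genotypes, while D14, KAI2, KUF1 and BBX20 are lower in DLK2-OE1 replicates 1 and 2 than in replicates 3 and 4.

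DLK2 lies on the minus strand of chromosome 3 (8862813 to 8865239, TAIR10.1), and its 2 exons hold 822 coding bases. Its normalized level was 120, 150, 137 and 145 CPM in DLK2-OE1 replicates 1 to 4, against 60.4, 73.5, 85.1 and 73.4 CPM in WT replicates 1 to 4. The lowest DLK2-OE1 library stood well above the highest WT library. The means were 138 ± 13.2 CPM in DLK2-OE1 and 73.1 ± 10.1 CPM in WT (SD, n = 4 each). On the log2 scale the difference was 0.92 (SE 0.12, edgeR adjusted p = 0.0178). It ranked 35 by p among all tested genes, and 92.6% of them had an equal or smaller signed log2 fold change. Without DLK2-OE1 replicates 1 and 2 the log2 fold change was 0.96 (edgeR adjusted p = 0.0469), where 0.328% of tested genes passed. The edgeR call was lost without DLK2-OE1 replicate 1 (0.97, adjusted p = 0.0574, 0.0767% of genes passing), without WT replicate 1 (0.83, adjusted p = 0.067, 0.0705% passing) and without WT replicate 3 (0.99, adjusted p = 0.0548, 0 genes passing).

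Counts and FPKM values together give the length that the authors' scaling assigned to a gene. For DLK2 it was 1124 bases in every one of the 8 libraries, with no difference between DLK2-OE1 and WT. It was also a single value for D14 (1139), KAI2 (1309), MAX2 (2329), KUF1 (1452) and BBX20 (1023). For BRC1 it ran from 1301 to 1446 bases. The exonic length in TAIR10.1 is longer by 71 bases for MAX2, 352 for DLK2 and 520 for D14, so the standing of one gene against another in FPKM depends on lengths that differ between sources. Transgene and endogenous DLK2 transcripts cannot be told apart in these values.

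D14, the strigolactone receptor gene (chromosome 3, 1033579 to 1035237, plus strand, 1 exon), had 44.2, 32.9, 65.2 and 57.5 CPM in DLK2-OE1 replicates 1 to 4, against 67.3, 63.7, 63.4 and 62.8 CPM in WT replicates 1 to 4. DLK2-OE1 replicates 1, 2 and 4 lay below every WT library and replicate 3 within the WT range. WT libraries were close together, with a coefficient of variation of 3.22%, against 28.7% in DLK2-OE1. The log2 fold change was -0.37 (SE 0.19, edgeR adjusted p = 0.243), and -0.06 (adjusted p = 0.827) without DLK2-OE1 replicates 1 and 2. KAI2, the receptor gene for the karrikin pathway (chromosome 4, 17616659 to 17618656, minus strand, 2 exons), had 39.9, 39.0, 56.2 and 49.0 CPM in DLK2-OE1 replicates 1 to 4. WT replicates 1 to 4 had 52.0, 58.9, 63.0 and 60.3 CPM of KAI2. DLK2-OE1 replicate 3 exceeded WT replicate 1, so the genotypes overlapped. The log2 fold change of KAI2 was -0.35 (SE 0.13, edgeR adjusted p = 0.135), and -0.14 (adjusted p = 0.593) without DLK2-OE1 replicates 1 and 2.

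MAX2 (chromosome 2, 17756069 to 17758468, plus strand, 1 exon) encodes the F-box subunit through which both receptors act. It had 57.4, 54.7, 54.2 and 51.8 CPM in DLK2-OE1 replicates 1 to 4, against 33.5, 38.1, 41.3 and 45.9 CPM in WT replicates 1 to 4. All DLK2-OE1 libraries lay above all WT libraries, and DLK2-OE1 replicates 1 and 2 did not stand apart from replicates 3 and 4 here. The log2 fold change was 0.46 (SE 0.10, edgeR adjusted p = 0.0469). The call is close to the threshold and was lost in 14 of 19 alternatives, among them limma-voom (adjusted p = 0.0628, 1.46% of genes passing), no filter on low counts (edgeR adjusted p = 0.0516, 2.95% passing) and the omission of both DLK2-OE1 replicates 1 and 2 (0.43, adjusted p = 0.187), at log2 fold changes from 0.38 to 0.62 over all alternatives. Leaving out 1 library ended it for DLK2-OE1 replicates 1, 2 and 3 (adjusted p = 0.147, 0.0836 and 0.0518) and WT replicates 1, 2 and 3 (adjusted p = 0.12, 0.105 and 0.146). Non-overlapping genotypes were found at 2 of the 7 tested members, DLK2 and MAX2, both higher in DLK2-OE1, and at 15.2% of all tested genes (7.87% higher and 7.29% lower in DLK2-OE1).

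The other subunits of the MAX2 ligase complex, ASK1, CUL1 and RBX1A, were 0 of 3 past the threshold in either direction, with log2 fold changes of -0.12, 0.08 and 0.05 (edgeR adjusted p from 0.397 to 0.738). Of the 8 genes of the SMAX1 and SMXL family, 1 rose and 7 did not pass, against 2.12% of all tested genes higher. SMAX1, SMXL2, SMXL6, SMXL7 and SMXL8 encode known targets of MAX2-dependent degradation, while SMXL3, SMXL4 and SMXL5 act in phloem formation and are not known to be degraded that way. The one that rose was SMXL5, at 9.87 ± 5.37 CPM in DLK2-OE1 and 3.12 ± 0.773 CPM in WT (SD, n = 4 each; log2 fold change 1.66, SE 0.37, edgeR adjusted p = 0.0461). SMXL5 did not pass without DLK2-OE1 replicates 1 and 2 (0.92, edgeR adjusted p = 0.149) or with limma-voom (1.58, adjusted p = 0.0923). DESeq2, which called 12.5% of its tested genes, called 5 of the 8, with SMXL3, SMXL4, SMXL5 and SMXL8 higher and SMAX1 lower in DLK2-OE1. SMAX1 itself, the repressor of the KAI2 branch, had 164, 144, 230 and 226 CPM in DLK2-OE1 replicates 1 to 4, against 263, 262, 272 and 273 CPM in WT replicates 1 to 4 (log2 fold change -0.49, edgeR adjusted p = 0.103). Without DLK2-OE1 replicates 1 and 2 its log2 fold change was -0.22 (edgeR adjusted p = 0.344). As with D14 and KAI2, its lowest values were in DLK2-OE1 replicates 1 and 2.

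Levels of different genes were set side by side in the authors' FPKM, which is scaled per length. DLK2 had the highest level of the 9 in DLK2-OE1, at 130 ± 20.8 FPKM, followed by D14 at 45.3 ± 9.26, KAI2 at 36.7 ± 3.99, KUF1 at 25.5 ± 4.78, MAX2 at 24.8 ± 3.23, BBX20 at 7.67 ± 2.87 and BRC1 at 1.70 ± 1.06 FPKM (SD, n = 4). In WT the order of the means was the same, with DLK2 at 61.8 ± 8.87, D14 at 53.6 ± 1.94, KAI2 at 42.5 ± 4.07, KUF1 at 23.0 ± 2.71, MAX2 at 16.2 ± 2.64, BBX20 at 4.38 ± 0.954 and BRC1 at 0.503 ± 0.187 FPKM (SD, n = 4). The neighbours D14 and KAI2, and KUF1 and MAX2, overlapped between libraries in DLK2-OE1. In WT only DLK2 and D14 did. HB40 and KUOX1 were lowest in both genotypes. The order of near neighbours and these overlaps rest on the authors' lengths, such as 1139 bases for D14 and 1309 for KAI2. The TAIR10.1 exonic lengths are 1659 and 1492 bases, with which D14 and KAI2 could change places, as could KUF1 and MAX2 in DLK2-OE1.

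Within the hydrolase family DLK2 had the largest share in every DLK2-OE1 library. It held 61.1% ± 6.12 of the summed FPKM of DLK2, D14 and KAI2 in DLK2-OE1 and 39.0% ± 2.85 in WT (SD, n = 4 each). The share of D14 was 21.5% ± 4.62 in DLK2-OE1 and 34.1% ± 3.28 in WT, and that of KAI2 was 17.3% ± 1.57 in DLK2-OE1 and 26.9% ± 0.685 in WT (SD, n = 4 each). Since the shares sum to the whole, a larger share of DLK2 lowers the others whatever their own levels.

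Ratios within a library cancel its scaling, and 6 were formed among DLK2, D14, KAI2 and MAX2. Because they share genes, they are not independent of each other. Those with DLK2 carry the rise of the overexpressed gene itself. DLK2 over D14 was 2.76, 4.63, 2.13 and 2.56 in DLK2-OE1 replicates 1 to 4, against 0.91, 1.17, 1.36 and 1.18 in WT replicates 1 to 4. DLK2 over KAI2 was 3.51, 4.49, 2.84 and 3.45 in DLK2-OE1 replicates 1 to 4, against 1.35, 1.45, 1.57 and 1.42 in WT replicates 1 to 4. In WT leaves DLK2 was thus near the level of D14 and above KAI2, while in DLK2-OE1 it exceeded each of them in every library. The difference in mean log2 ratio was 1.34 (SE 0.27) for DLK2 over D14 and 1.28 (SE 0.14) for DLK2 over KAI2. For DLK2 over MAX2 it was 0.46 (SE 0.12), and the genotypes nearly met, at 4.34 in the lowest DLK2-OE1 library and 4.27 in the highest WT library.

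MAX2 was set against the receptor genes in the same way. MAX2 over D14 was 0.635, 0.814, 0.407 and 0.441 in DLK2-OE1 replicates 1 to 4, against 0.243, 0.292, 0.319 and 0.357 in WT replicates 1 to 4. MAX2 over KAI2 was 0.808, 0.788, 0.542 and 0.595 in DLK2-OE1 replicates 1 to 4, against 0.362, 0.363, 0.368 and 0.428 in WT replicates 1 to 4. For both ratios the lowest DLK2-OE1 library was above the highest WT library, and they were highest in DLK2-OE1 replicates 1 and 2. The differences in mean log2 ratio were 0.88 (SE 0.26) and 0.83 (SE 0.16), and without DLK2-OE1 replicates 1 and 2 they were 0.50 and 0.58. D14 over KAI2 was between 0.968 and 1.35 in DLK2-OE1 and between 1.16 and 1.49 in WT, a difference in log2 ratio of -0.05 (SE 0.14). With all 70 ways of assigning the libraries enumerated, the two-sided exact permutation p was 0.0286 for each of the other 5 ratios, which is the smallest that 4 against 4 allows, and 0.0343 once adjusted over the 6 (Benjamini-Hochberg). For D14 over KAI2 the exact permutation p was 0.743.

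**Figure D2:**
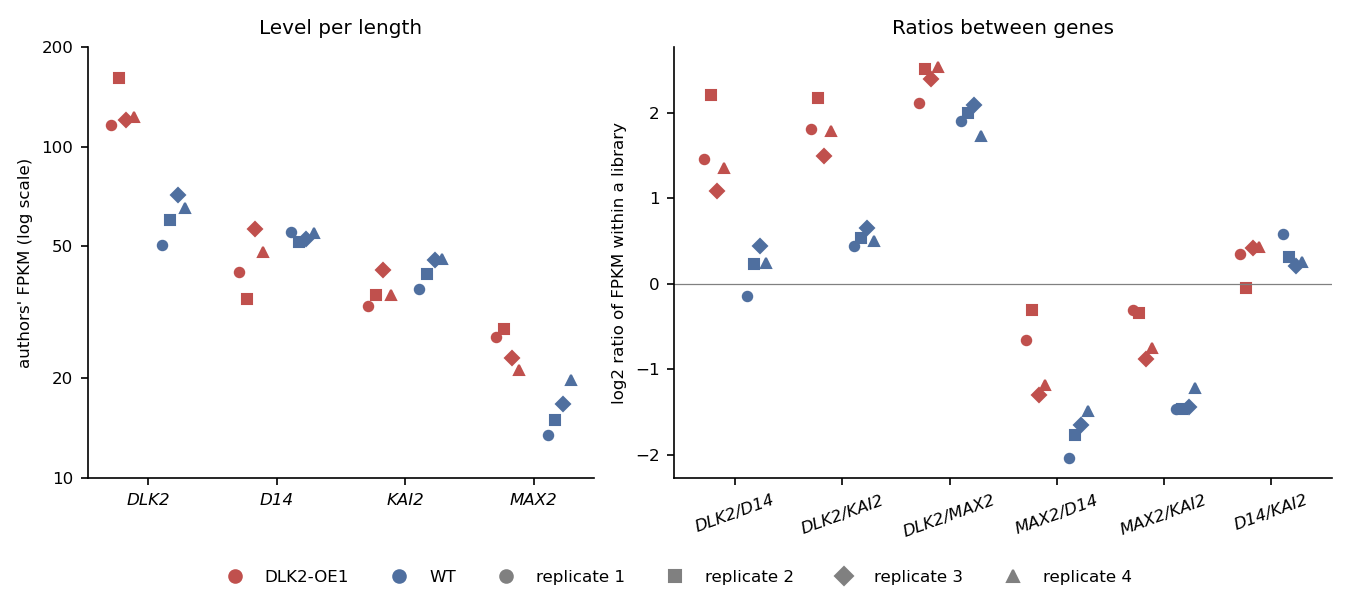
Left, the authors' FPKM (log scale) of DLK2, D14, KAI2 and MAX2 in each library; right, log2 ratios of FPKM between these genes within a library, for DLK2-OE1 and WT, with the symbol's shape giving the replicate. All ratios except D14 over KAI2 separate the genotypes, and MAX2 over D14 and MAX2 over KAI2 are highest in DLK2-OE1 replicates 1 and 2.

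KUF1 (chromosome 1, 11221267 to 11222827) encodes a karrikin-induced F-box protein that is known to dampen the KAI2 pathway. It had 29.1, 25.5, 44.7 and 43.8 CPM in DLK2-OE1 replicates 1 to 4, against 32.0, 38.9, 31.9 and 37.7 CPM in WT replicates 1 to 4. DLK2-OE1 replicates 1 and 2 lay below all WT libraries and replicates 3 and 4 above all of them. On average the difference was 0.02 on the log2 scale (SE 0.19, edgeR adjusted p = 0.949), and its sign turned in 6 of 19 alternatives. Without DLK2-OE1 replicates 1 and 2 it was 0.34 (adjusted p = 0.227).

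BBX20 (chromosome 4, 18204631 to 18206684), also called STH7 or BZS1, encodes a karrikin-induced B-box protein. It had 5.11, 4.25, 10.2 and 11.2 CPM in DLK2-OE1 replicates 1 to 4, against 3.54, 4.91, 4.67 and 5.71 CPM in WT replicates 1 to 4. DLK2-OE1 replicates 3 and 4 were above every WT library and replicates 1 and 2 within the WT range. The log2 fold change was 0.70 (SE 0.32, edgeR adjusted p = 0.204), and 1.19 (adjusted p = 0.0544) without DLK2-OE1 replicates 1 and 2. A gene on the opposite strand overlaps BBX20 and no source used here states the strand setting, so its counts are uncertain. KUOX1 (chromosome 5, 2367167 to 2369696), a karrikin-induced oxidoreductase gene, had 0 counts in all 8 libraries, which allows up to 0.0398 CPM in DLK2-OE1 and 0.0369 CPM in WT (3 counts over the libraries of a genotype, counting error only).

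**Figure D3:**
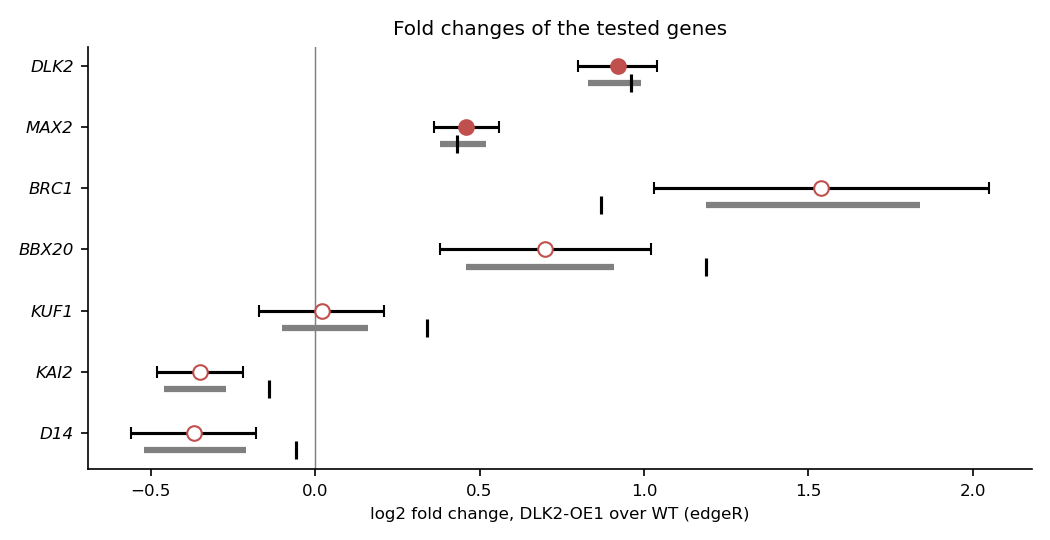
Log2 fold change of DLK2-OE1 over WT (x axis) for the 7 tested members, with the edgeR standard error; filled points passed an adjusted p of 0.05. Grey bars span the values with 1 library left out, and black ticks mark the value without DLK2-OE1 replicates 1 and 2, which lies outside the grey bar for BRC1, BBX20, KUF1, KAI2 and D14 and inside it for DLK2 and MAX2.

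BRC1 (chromosome 3, 6383289 to 6385815) encodes a TCP transcription factor that holds axillary buds arrested and is known to respond to strigolactones. Its raw counts were 48, 83, 39 and 11 in DLK2-OE1 replicates 1 to 4, against 8, 22, 10 and 18 in WT replicates 1 to 4. In CPM this was 2.40, 3.56, 2.09 and 0.621 in DLK2-OE1, against 0.472, 1.08, 0.497 and 0.918 in WT. DLK2-OE1 replicates 1, 2 and 3 were above all WT libraries and replicate 4 was inside the WT range. The log2 fold change was 1.54 (SE 0.51, edgeR adjusted p = 0.104). BRC1 passed with DESeq2 (adjusted p = 0.0412), which called 12.5% of its tested genes, and without DLK2-OE1 replicate 4 (1.84, edgeR adjusted p = 0.0231), where 11.9% of tested genes passed. Replicate 4 was its lowest DLK2-OE1 library. BRC1 met the edgeR filter through DLK2-OE1 with or without that library, so this edgeR pass is no separate support for a rise. Over the alternatives its adjusted p ran from 0.0231 to 0.515, and was highest without DLK2-OE1 replicates 1 and 2, where its log2 fold change was 0.87.

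HB40 (chromosome 4, 17314453 to 17316441) encodes a homeodomain protein that acts downstream of BRC1 in buds. It had 4, 5, 2 and 0 counts in DLK2-OE1 replicates 1 to 4, against 1, 0, 0 and 0 in WT replicates 1 to 4. The sums of 11 and 1 counts give a ratio of 10.6 per normalized count, with an exact 95% interval from 1.55 to 458 that covers counting error only. In the fit with no filter its edgeR adjusted p was 0.182. Its relatives in the same branch had more counts but were also below the filter. HB21 had 13, 31, 11 and 3 counts in DLK2-OE1 replicates 1 to 4, against 1, 5, 2 and 5 in WT replicates 1 to 4, and HB53 had 8, 37, 5 and 0 counts in DLK2-OE1, against 0, 2, 0 and 1 in WT. With no filter the edgeR adjusted p was 0.118 for HB21 and 0.117 for HB53. Without DLK2-OE1 replicate 4, its lowest DLK2-OE1 library, HB21 entered the test and passed (2.32, edgeR adjusted p = 0.0344), where 11.9% of tested genes passed. It met the filter there through its high DLK2-OE1 libraries, so this pass is no separate support for a rise. For BRC1, HB40, HB21 and HB53 alike, DLK2-OE1 replicate 2 had the highest count and DLK2-OE1 replicate 4 the lowest of the 4 DLK2-OE1 libraries.

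The 13 other response genes listed include HB21 and HB53, and 10 of them were tested, with 0 past the threshold in either direction (6 positive and 4 negative log2 fold changes, median 0.05). At an unadjusted p under 0.05 edgeR had 4 of these 10, against 26.3% of all tested genes. DESeq2 called 3 of the 13 (BRC2, IAA1 and TCP1, all higher in DLK2-OE1), against 12.5% of its tested genes. BRC2, the close relative of BRC1, was singled out after its values were seen, with 2.27 ± 1.65 CPM in DLK2-OE1 and 0.468 ± 0.205 CPM in WT (SD, n = 4 each; log2 fold change 2.28, SE 0.54, edgeR adjusted p = 0.0523). It passed with DESeq2 (adjusted p = 0.00251, 12.5% of genes passing) and without DLK2-OE1 replicate 4 (edgeR adjusted p = 0.0212, 11.9% passing). It did not pass with limma-voom (adjusted p = 0.0971) or without DLK2-OE1 replicates 1 and 2 (1.43, edgeR adjusted p = 0.226). All 4 DLK2-OE1 libraries were above the WT libraries for BRC2, as for 7.87% of all tested genes. Its counts were 38, 109, 29 and 17 in DLK2-OE1 replicates 1 to 4, against 7, 6, 8 and 15 in WT replicates 1 to 4. BRC2 met the edgeR filter through DLK2-OE1. Neither its pass without DLK2-OE1 replicate 4 nor its lack of overlap is thus separate support for a rise. NCED3, an abscisic acid synthesis gene that HB40 and its relatives are known to raise in buds, had 12.2, 7.81, 25.1 and 22.0 CPM in DLK2-OE1 replicates 1 to 4, against 25.5, 27.3, 28.5 and 29.5 CPM in WT replicates 1 to 4 (log2 fold change -0.73, edgeR adjusted p = 0.177). Without DLK2-OE1 replicates 1 and 2 its log2 fold change was -0.22 (edgeR adjusted p = 0.366). All DLK2-OE1 libraries lay below WT for NCED3, with replicates 1 and 2 lowest, as did 7.29% of all tested genes. The margin was narrow, at 25.1 CPM in DLK2-OE1 replicate 3 and 25.5 CPM in WT replicate 1.

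Strigolactone synthesis genes were nearly silent or did not pass, at 0 of 4 tested in either direction. The carotenoid cleavage dioxygenase genes MAX3 and MAX4 had too few counts for the test, at 11, 40, 3 and 0 counts of MAX3 in DLK2-OE1 replicates 1 to 4, against 0, 0, 0 and 1 in WT replicates 1 to 4. MAX4 had 34, 75, 5 and 3 counts in DLK2-OE1, against 0, 1, 1 and 1 in WT. Both had most of their counts in DLK2-OE1 replicates 1 and 2. With no filter MAX4 passed (edgeR adjusted p = 0.0493) and MAX3 did not (0.0802), where 2.95% of genes passed. With DESeq2 both passed (MAX4 adjusted p = 0.00145, MAX3 0.0238), where 12.5% of genes passed. Of the genes CXE15 and CXE20, whose carboxylesterase products are linked to strigolactone breakdown, 0 of 2 passed (edgeR adjusted p = 0.238 and 0.524).

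The summed levels of markers of shoot apex and bud, dividing cells and xylem were, like BRC1 and its relatives, highest in DLK2-OE1 replicate 2. Single markers were not all so, and CUC1, CDKB2;2 and XCP1 were highest in DLK2-OE1 replicate 1. The summed level of 11 shoot apex and bud markers was 33.3, 54.9, 7.4 and 8.24 CPM in DLK2-OE1 replicates 1 to 4 and at most 2.75 CPM in WT. Most of the sum in DLK2-OE1 came from 2 genes, STM and KNAT1. In DLK2-OE1 replicates 1 to 4, STM had 14.6, 22.0, 3.00 and 2.71 CPM and KNAT1 16.3, 28.6, 3.06 and 5.42 CPM. Of the 11 genes only these 2 were tested, and both passed, higher in DLK2-OE1. Their counts in WT replicates 1 to 4 were 0, 11, 0 and 0 (STM) and 0, 10, 0 and 0 (KNAT1). They thus entered the test through DLK2-OE1, and their passing is no separate support for a rise of the list. The other markers had too few counts for the test, with CLV3 at 0 in all libraries and WUS at 1 count in each genotype. Of 6 dividing cell markers 4 rose and of 5 xylem markers 3 rose, against 2.12% of all tested genes higher. AUR2, among these 4, had 100, 164, 44 and 28 counts in DLK2-OE1 replicates 1 to 4, against 9, 22, 10 and 8 in WT replicates 1 to 4. It too met the filter through DLK2-OE1, so its passing is no separate support for a rise. Dividing cell sums were 59.1, 75.3, 24.2 and 18.4 CPM in DLK2-OE1 replicates 1 to 4 and 7.55 to 12.3 CPM in WT. Xylem sums were 128, 231, 77.3 and 56.4 CPM in DLK2-OE1 replicates 1 to 4 and 19.0 to 50.8 CPM in WT. The sum of 3 phloem markers was instead lowest in DLK2-OE1 replicate 2. It was 214, 159, 256 and 278 CPM in DLK2-OE1 replicates 1 to 4 and 255 to 292 CPM in WT. Most of this sum came from SUC2. SUC2 and APL were lowest in DLK2-OE1 replicate 2, at 98.3 and 9.87 CPM, while SEOR1 was highest there, at 50.7 CPM. Of the 3, 0 passed, with log2 fold changes of -0.46 (SUC2), -0.15 (APL) and 0.66 (SEOR1). The apex and bud, dividing cell and xylem lists also separate DLK2-OE1 replicates 1 and 2 from replicates 3 and 4. In replicates 1 and 2, D14, KAI2, KUF1 and BBX20 were lowest among DLK2-OE1 libraries. The part of these other cell types in the levels of the 9 genes was not tested.

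**Figure D4:**
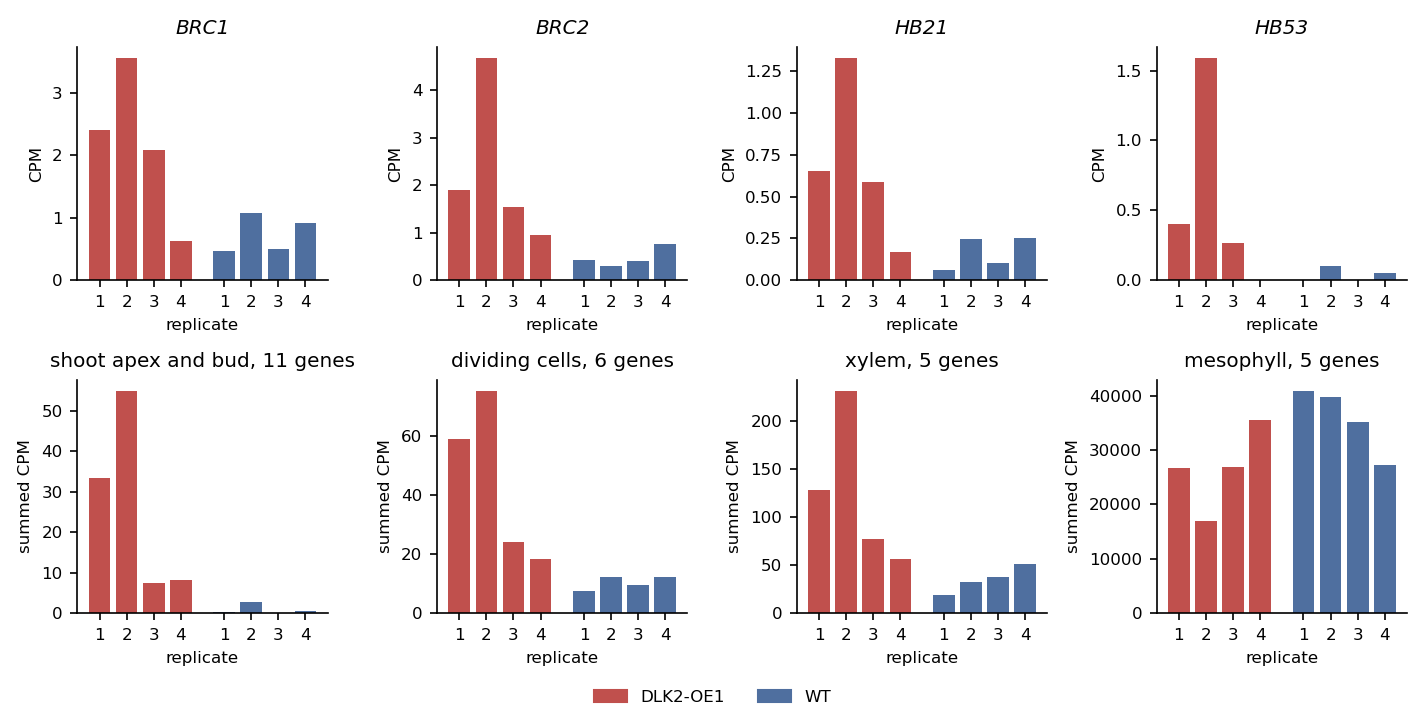
Level in each DLK2-OE1 and WT library of BRC1, its relative BRC2 and the homeobox genes HB21 and HB53 (upper row, CPM) and summed level of the marker lists for shoot apex and bud, dividing cells, xylem and mesophyll (lower row, summed CPM). DLK2-OE1 replicate 2 has the highest bar in every panel except mesophyll, where it has the lowest. Most of the shoot apex and bud sum in DLK2-OE1 comes from STM and KNAT1.

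Likeness between genes was measured on log2 CPM after subtracting each genotype's mean, as Pearson's r over the 8 libraries, among 6643 genes with a symbol and at least 5 CPM on average. It is a description with no test. The genes most like DLK2 were UBP20 (0.976), SEU (0.935), ABA3 (0.926), SUVH1 (0.918) and DOT2 (0.91). Those most like D14 were CYSD2 (0.993), RAB7B (0.99) and PIRL4 (0.988), and those most like MAX2 were MAPR2 (0.975), GSL03 (0.972) and ADA2B (0.964). For KAI2 they were PEX11E (0.981), RBX1 (0.98), which is the ligase subunit RBX1A named above, and ACA11 (0.977). None of these 14 genes passed the test between genotypes (edgeR adjusted p from 0.0805 to 0.908).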

How the data were processed

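Each deposited table holds, per the file headers, a count for every gene and the authors' FPKM. Among tools, the submitters' processing notes list StringTie 1.3.1 and HISAT2, with Bowtie2 2.2.8 and fastp 0.18.0 and also edgeR, DESeq2 and RSEM. Their roles and order are not stated, and the build is TAIR10. The sources do not say if a count is of reads or a rounded estimate. All 9 loci matched TAIR10.1 locus tags, the source of coordinates and coding sequence.

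Counts were tested in R 4.3.3 with edgeR 4.0.16 (filterByExpr, TMM, robust quasi-likelihood fit, genotype as the only term) over 18155 genes, after the code had been tested on simulated data. Standard errors were derived from the log2 fold change and its F statistic. Ratios of FPKM were compared by exact permutation in SciPy 1.17.1, and coding sequences aligned with Biopython 1.88. Alternatives changed the scaling, filter, replicate block, libraries or tool (DESeq2 1.42.0, limma 3.58.1). No library was a duplicate of another (chi-square per degree of freedom between replicates 11.4 to 108).

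Members and lists were chosen with earlier results of these data known. Named genes were the 9 members, listed pathway genes past the threshold with up to 3 more per list in list order, and the 5 genes most like DLK2 and 3 most like each of D14, KAI2 and MAX2. BRC2, and genes named for passing with DESeq2 or for their highest library, are outside that rule.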

Additional observations from a re-analysis of the deposited data

Results flagged for a closer look

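Among 27 sets of 4 libraries looked at, 1 held a library far from the others. The log2 FPKM ratio of MAX2 over KAI2 was -1.22 in WT replicate 4, while the other WT libraries were at -1.46, -1.46 and -1.44. The gap was 0.901 of the whole range, above the value of 0.829 that chance exceeds in about 1 of 20 such groups. Finding 1 such set among 27 is no more than that rate gives. The DLK2-OE1 libraries, at -0.88 to -0.31, remained above WT replicate 4.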

How the results depend on the processing

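DLK2 kept its direction in all 19 alternatives and its call in 16, at log2 fold changes of 0.83 to 1.07 (0.83 to 0.99 with 1 library left out). Counts of called genes, 670 on all libraries, were 245 with a replicate block, 2823 with DESeq2, 265 with limma-voom, 60 without DLK2-OE1 replicates 1 and 2, and 288, 355 and 337 with limma-trend on log2 FPKM at pseudocounts of 1, 0.1 and 0.01 (291 with no filter at 0.1). They ran from 0 (without WT replicate 3, with 3599 at an unadjusted p under 0.05) to 2191 with 1 library left out. Among the members, 1 was called (DLK2) with no filter, a replicate block, limma-voom, each limma-trend fit and without DLK2-OE1 replicates 1 and 2, and 0 to 3 with 1 library left out. On the FPKM scale the median of all genes shifted by 0.121 to 0.15, so fold changes there are relative to that shift. D14 and KAI2 stayed negative and unpassed throughout. KUF1 turned to -0.01 with a replicate block and with limma-voom, and ranged from -0.10 to 0.16 with 1 library left out, at -0.10 and -0.09 without DLK2-OE1 replicates 3 and 4 and -0.02 without WT replicate 1 or 3. The log2 ratio differences stood at 1.34, 1.28, 0.46, 0.88 and 0.83 with a replicate block for the 5 ratios that passed, where 4 pairs cannot give p below 0.125. Without DLK2-OE1 replicates 1 and 2, MAX2 over D14 was 0.50, MAX2 over KAI2 0.58 and D14 over KAI2 0.08; with 1 library left out D14 over KAI2 reached 0.06 without DLK2-OE1 replicate 2 and 0.03 without WT replicate 1. The cause was not tested. Same-numbered libraries did not deviate together (correlations -0.10 to 0.12, with 1 of 8 libraries nearest its own number), so the numbers were not taken to pair them. HB40 is limited by depth, at 11 counts in DLK2-OE1 and 1 in WT. For BRC1 the ratio of summed counts was 3.02, with a counting interval of 2.23 to 4.13, and the coefficient of variation between libraries was 55.8% in DLK2-OE1 and 41.1% in WT.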
